A study of Mus musculus with 34 samples.

Results

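NRF2, encoded by Nfe2l2, is the transcription factor that switches on antioxidant and detoxification genes when cells meet oxidants or electrophiles. In resting cells the adaptor protein KEAP1 holds NRF2 for ubiquitination and degradation, and once that hold is released NRF2 pairs with small MAF proteins and binds antioxidant response elements in the promoters of its targets. Because NRF2 is controlled chiefly through protein stability, its activity is usually read from its targets, which in brain tissue are most readily induced in astrocytes. The genes described here are the regulators Nfe2l2 and Keap1 and 8 known targets, namely Nqo1, Hmox1, Gclc, Gclm, Txnrd1, Srxn1, Gsr and Slc7a11. These 10 genes were chosen by symbol among the 23951 genes in the files, and each had a row in all 27 libraries analysed.

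The study asked how loss of the histone deacetylase HDAC1 changes the aged mouse brain, with and without Alzheimer-like amyloid pathology. Hippocampal RNA was sequenced from 4 control mice (Hdac1f/f), 5 Hdac1 cKO mice (Hdac1f/f, Nestin-Cre), 6 5XFAD mice (Hdac1f/f, 5XFAD) and 5 compound transgenic mice (Hdac1f/f, Nestin-Cre, 5XFAD), so every mouse carried floxed Hdac1 alleles. Control and Hdac1 cKO mice were 13 to 14 months old by their labels, and 5XFAD and compound mice were 13 months old. Nuclei positive for GFAP, an intermediate filament of astrocytes, were sorted from cortex, with 3 control and 4 Hdac1 cKO mice aged 13 months, and control 2 of this set was not analysed here. Nestin-Cre deletes floxed Hdac1 in neurons and astrocytes but leaves it in microglia, and the controls carried no Cre. 5XFAD mice are a model of amyloid pathology whose transgenes are driven by the neuronal Thy1 promoter. No source used here gives litters or library batches, so p-values measure the spread between the mice sampled.

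Hdac1 itself followed the labels in the hippocampus: its level was 5.91 to 10.7 FPKM in control and 6.10 to 9.64 FPKM in 5XFAD mice, against 2.36 to 3.03 FPKM in Hdac1 cKO and 1.15 to 2.52 FPKM in compound mice. In GFAP+ nuclei the groups overlapped, at 9.91 to 22.3 FPKM in control and 5.80 to 11.5 FPKM in Hdac1 cKO mice. FPKM counts fragments relative to the length of the transcript and to the total of mapped fragments, as deposited. Relative depth, recovered from the steps between low FPKM values, ranged from 0.754 to 2.35 in the hippocampal libraries and from 0.869 to 1.26 in the GFAP+ libraries, each relative to control 1 of its set. Ttr, the main secreted product of choroid plexus epithelium, spanned 53.8 to 20146 FPKM across the hippocampal libraries and exceeded 1000 FPKM in 9 of the 20, of which 3 were controls, 1 was an Hdac1 cKO, 4 were 5XFAD and 1 was a compound mouse. All 7 choroid plexus markers were lower in Hdac1 cKO than in control mice by the thresholds given below, with summed levels of 59.8 to 1633 FPKM against 590.2 to 20467 FPKM, and none was at 0 in all libraries of a group. Of the 3 ependymal markers, 3 were lower in Hdac1 cKO and 2 in 5XFAD than in control mice, with summed levels of 16.8 to 27.9 and 17.1 to 40.0 against 35.6 to 96.8 FPKM, and none was at 0 in all mice of a group. In compound against control mice 5 of 7 choroid plexus, 2 of 3 ependymal and 2 of 5 endothelial markers were lower. In that comparison 4 of 7 microglial, 6 of 6 disease-associated microglial and 2 of 7 astrocyte markers were higher. Control and Hdac1 cKO libraries were deposited with other protocol texts than 5XFAD and compound libraries, so a library batch and the 5XFAD transgene cannot be told apart, whereas Hdac1 cKO against control and compound against 5XFAD each stay within a single set of labels. In tissue RNA, fewer cells of a type and less RNA per cell cannot be told apart.

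The promoters show which members carry the letters that NRF2 is known to prefer. RefSeq promoter windows, running from 250 bases before to 50 bases after the annotated start on the GRCm38.p6 build, were found for 7 of the 10 members, with 3 windows for Txnrd1, and 4 of these 9 windows held the antioxidant response element core TGACNNNGC on either strand. Of 32851 windows of the full 300 bases, which leave out a chromosome that holds no member, 12.4% held it. A match is a run of letters and not a measured binding site. The 4 matches are printed in the direction of the gene with 8 flanking bases on each side and the core in capitals, and where the core lies on the other strand the capitals show its reverse complement:
Nfe2l2: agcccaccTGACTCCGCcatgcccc
Gclm: tcccgggcGCACCGTCAactctcac
Txnrd1: ggatttttGCTTTGTCAttctgaca
Srxn1: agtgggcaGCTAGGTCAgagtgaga
These cores begin 240 bases before the start of Nfe2l2, 134 before that of Gclm and 92 before that of Txnrd1, and 28 bases after that of Srxn1. Only the Nfe2l2 core reads along the strand of its gene.

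Nqo1, the member with the lowest levels relative to control in both single-mutant groups, had no such core in its window at chr8:107403156-107403455 (minus strand, GRCm38.p6). It is printed whole because the hippocampal results turn on this gene:
Nqo1: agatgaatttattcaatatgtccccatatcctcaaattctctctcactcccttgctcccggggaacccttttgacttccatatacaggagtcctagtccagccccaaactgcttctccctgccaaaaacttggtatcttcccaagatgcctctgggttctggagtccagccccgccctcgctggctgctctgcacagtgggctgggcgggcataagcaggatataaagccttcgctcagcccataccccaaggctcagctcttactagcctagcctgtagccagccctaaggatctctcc
The absence of a match says only that these letters are not in this window. On the mm9 build used for the FPKM values, the protein-coding gene Nqo1 lies at chr8:109912125-109927106 on the minus strand, Nfe2l2 at chr2:75513570-75542698 on the minus strand, Hmox1 at chr8:77617490-77624495 on the plus strand and Gsr at chr8:34762995-34808635 on the plus strand.

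The pathway moved in few of its members and not in a single direction. In both Hdac1 cKO and 5XFAD hippocampus Nqo1 was lower than in control; in compound hippocampus Nfe2l2 and Hmox1 were higher than in Hdac1 cKO mice; and for Nqo1 and Hmox1 the change with Hdac1 loss differed between mice without and with 5XFAD. Both Nqo1 calls were lost with choroid plexus content as a covariate (-0.35 and -0.55), the 5XFAD call by the fold threshold alone. Choroid plexus content was itself lower in Hdac1 cKO than in control mice, so in that comparison the covariate largely follows genotype. The Nfe2l2 call was lost without compound 4 (0.46). The Hmox1 mean in Hdac1 cKO mice lay under the filter of 0.5 FPKM, so its call against them and its interaction are descriptions. The glutamate-cysteine ligase subunits Gclc and Gclm, Txnrd1, Srxn1 and the regulator Keap1 passed the thresholds in no comparison, nor did Gsr and Slc7a11. A gene was called when it differed at least 1.5-fold and limma gave a p under 0.05 before adjustment, and no member reached an adjusted p under 0.05 in any of the 8 comparisons. In the 4 comparisons with a call, 1 or 2 of the 10 members were called, beside 2.95% to 4.07% of all genes.

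**Figure D1:**
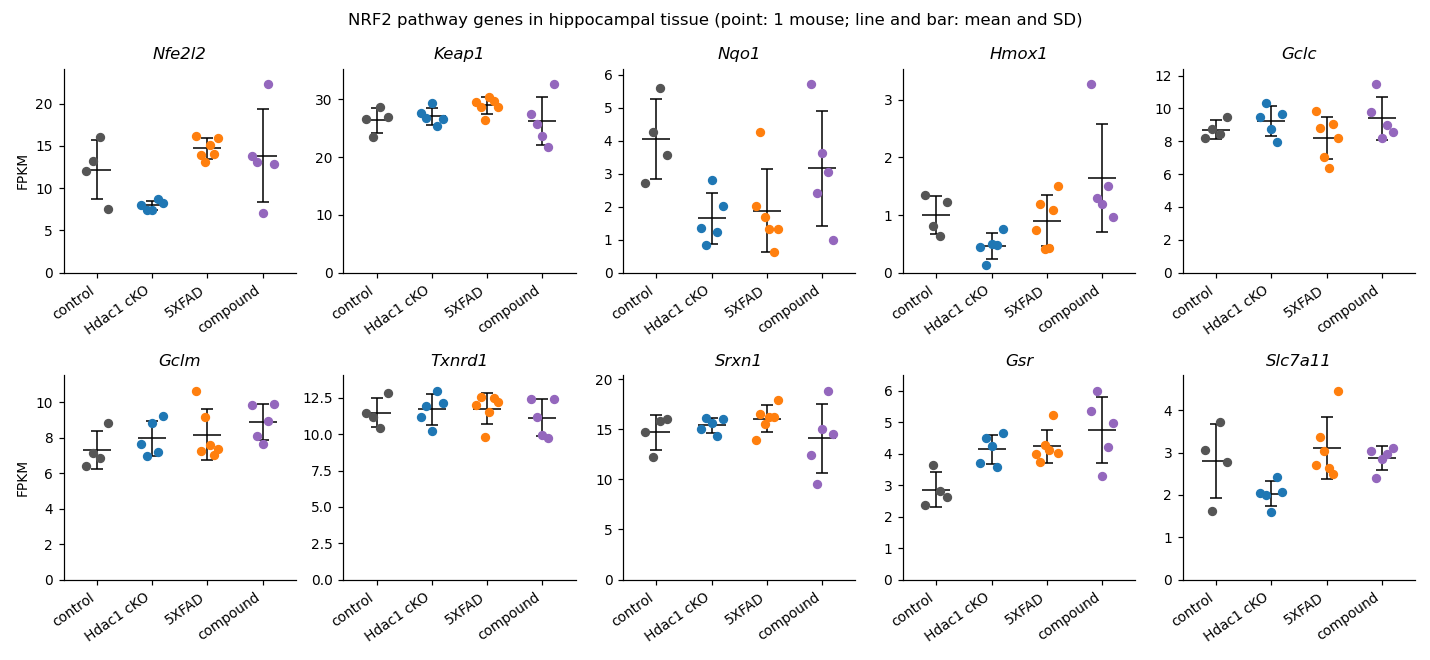
FPKM (linear axis from 0) of the 10 genes in each hippocampal mouse, with the mean and SD of each group. Nqo1 and Hmox1 are low and spread widely relative to their means, whereas Keap1, Gclc and Txnrd1 sit in narrow bands in all 4 groups.

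Among the regulators, Nfe2l2 was low and tightly grouped in Hdac1 cKO mice. Its level was 12.05, 13.2, 16.0 and 7.57 FPKM in controls 1 to 4 and 8.01, 7.42, 7.41, 8.70 and 8.29 FPKM in the 5 Hdac1 cKO mice. All Hdac1 cKO mice lay below 3 of the 4 controls, and control 4 lay within their range. The 6 5XFAD mice ranged from 13.1 to 16.2 FPKM with a median of 14.6 FPKM, and the compound mice were at 13.8, 13.1, 7.01, 22.4 and 12.8 FPKM. Compound 3 was thus below all Hdac1 cKO mice, and compound 4 was above every other hippocampal library. Ordered by mean level, 5XFAD (14.7 ± 1.23 FPKM, SD, n = 6) stood before compound (13.8 ± 5.50 FPKM, n = 5), control (12.2 ± 3.51 FPKM, n = 4) and Hdac1 cKO (7.97 ± 0.560 FPKM, n = 5). Only the last pair of neighbours in this order differed by an exact permutation test, with p = 0.0397 for control and Hdac1 cKO against 0.550 and 0.738 for the others. Across the order, all Hdac1 cKO mice lay below all 5XFAD mice (exact permutation test, p = 0.00216), groups that also differ in their set of deposited libraries.

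Keap1, the adaptor that marks NRF2 for degradation, held steady. It averaged 26.4 ± 2.16 FPKM in control, 27.1 ± 1.48 FPKM in Hdac1 cKO, 28.9 ± 1.40 FPKM in 5XFAD and 26.2 ± 4.20 FPKM in compound mice (SD). Across the hippocampal comparisons of 2 groups its log2 fold change stayed between -0.15 and 0.13, and all of its groups overlapped.

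Nqo1 encodes a quinone reductase and is a classical readout of NRF2. Its level was 2.73, 4.25, 5.59 and 3.57 FPKM in controls 1 to 4 and 1.36, 0.850, 2.79, 1.22 and 2.03 FPKM in Hdac1 cKO mice 1 to 5. The groups touched only where Hdac1 cKO 3 lay just above control 1. In 5XFAD mice Nqo1 was at 2.02, 4.27, 1.69, 1.33, 0.613 and 1.33 FPKM, so 5XFAD 2 stood within the control range and the other 5XFAD mice stood below all controls. In compound mice it was at 5.72, 2.42, 3.62, 3.05 and 0.979 FPKM and covered nearly the whole range seen in the tissue. By mean level control (4.04 ± 1.21 FPKM, SD) came first, then compound (3.16 ± 1.74 FPKM), 5XFAD (1.88 ± 1.26 FPKM) and Hdac1 cKO (1.65 ± 0.768 FPKM), and no neighbouring pair in this order differed by an exact permutation test (p = 0.381, 0.193 and 0.831). These means rest on few fragments, with 5 to 41 per hippocampal library where whole fragments could be recovered from the FPKM steps, at the largest unit that fits.

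Hmox1, heme oxygenase 1, breaks down heme and was the lowest member. It was at 1.34, 0.816, 0.634 and 1.22 FPKM in controls, at 0.446, 0.139, 0.499, 0.479 and 0.760 FPKM in Hdac1 cKO mice and at 3.28, 1.30, 1.19, 1.5 and 0.962 FPKM in compound mice. Every compound mouse was above every Hdac1 cKO mouse, and compound 1 stood apart from the others. The 5XFAD mice spread from 0.415 to 1.51 FPKM around a median of 0.914 FPKM and overlapped all other groups. Hmox1 rested on 1 to 15 fragments per hippocampal library and on 134 over all 20, so its values in single libraries carry wide counting error.

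Gsr and Slc7a11 serve the supply of reduced glutathione. Gsr, which regenerates reduced glutathione, was lowest in control mice, at 2.36, 3.63, 2.82 and 2.63 FPKM, against 3.72, 4.49, 4.23, 3.59 and 4.65 FPKM in Hdac1 cKO mice. In 5XFAD mice it ranged from 3.75 to 5.23 FPKM with a median of 4.08 FPKM, with no overlap with control, and in compound mice it was at 5.34, 6.01, 3.30, 4.22 and 4.97 FPKM. Control 2 was the only control to reach the Hdac1 cKO and compound ranges. Slc7a11, the light chain of the cystine importer that feeds glutathione synthesis, averaged 2.80 ± 0.877 FPKM in control, 2.03 ± 0.294 FPKM in Hdac1 cKO, 3.12 ± 0.734 FPKM in 5XFAD and 2.87 ± 0.283 FPKM in compound mice (SD). Its Hdac1 cKO mice, at 1.59 to 2.42 FPKM, lay below all 5XFAD mice, at 2.49 to 4.47 FPKM (exact permutation test, p = 0.00433). These groups differ in Hdac1 loss, in the transgene and in their set of deposited libraries, which cannot be told apart here.

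The remaining targets varied less within groups than Nqo1 and Hmox1. Gclc, the catalytic subunit of glutamate-cysteine ligase, ranged from 6.38 to 11.5 FPKM over all 20 mice, and its modifier subunit Gclm ranged from 6.40 to 10.6 FPKM. Txnrd1, the cytosolic thioredoxin reductase, ranged from 9.74 to 13.0 FPKM, and Srxn1, which repairs overoxidised peroxiredoxins, from 9.55 to 18.8 FPKM. Within groups the coefficient of variation was 6.35% to 15.6% for Gclc, 11.4% to 17.6% for Gclm, 8.77% to 11.6% for Txnrd1 and 4.90% to 24.3% for Srxn1, the highest of these in compound mice, against 30.0% to 67.3% for Nqo1 and 33.2% to 56.9% for Hmox1.

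In Hdac1 cKO against control hippocampus, the comparison that asks what HDAC1 loss does in the absence of amyloid pathology, 1 of the 10 members was called, beside 3.36% of all 14265 genes tested. Nqo1 was lower, with a log2 fold change of -0.94 (SE 0.23, limma adjusted p = 0.145, exact permutation p = 0.0238). Nfe2l2 had a log2 fold change of -0.52 (SE 0.17, exact permutation p = 0.0397) and Hmox1 one of -0.45 (SE 0.19, exact permutation p = 0.0238), both short of 1.5-fold on the scale of log2(FPKM + 1), while Gsr went the other way at 0.42 (SE 0.14, exact permutation p = 0.0159). For these 3 genes limma's p before adjustment was also under 0.05. By the ratio of mean FPKM, with no pseudocount, Nfe2l2 was at -0.61 and Hmox1 at -1.11 on the log2 scale, and both then passed the thresholds. The Hdac1 cKO mean of Hmox1 lay under the filter of 0.5 FPKM, so this gene was tested here through its control level, and its values are a description. An adjusted p under 0.05 was reached by 0.154% of all genes and by none of the members, whose adjusted p started at 0.145. The median over the members was 0.03 beside -0.000684 over all genes tested, and 6 of the 10 were higher. The study's own figure of genes called on these libraries, read by eye, shows Nfe2l2 and Nqo1 as lower antioxidant genes. Their direction here is therefore not independent evidence. The paper also reports qPCR of several called genes, and its qPCR primer list includes Nfe2l2 and Nqo1. In cultured neurons it reports lower expression of that figure's downregulated genes under oxidative stress and with Hdac1 knockdown.

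The size of the Nqo1 difference depended on how libraries rich in Ttr were treated. Control 1, the control with the least Ttr (576 FPKM), had the lowest control level of Nqo1, and the 3 other controls, at 12903 to 20146 FPKM of Ttr, had the highest. 5XFAD 2 and compound 1, each with the most Ttr of its group (7892 and 13910 FPKM), also had the most Nqo1 of their groups. Other mice did not follow this order. Hdac1 cKO 5, with the most Ttr of its group (1608 FPKM), had less Nqo1 than Hdac1 cKO 3 (105 FPKM of Ttr), 5XFAD 6 and 3 had 1.33 and 1.69 FPKM of Nqo1 at 6617 and 5554 FPKM of Ttr, and compound 3 had 3.62 FPKM of Nqo1 at 148 FPKM of Ttr. With the choroid plexus score as a covariate, an alternative added after the data were seen, the log2 fold change of Nqo1 in Hdac1 cKO mice was -0.35 (SE 0.36), and over libraries with Ttr under 1000 FPKM, which leave control 1 as the lone control, assumed to vary like the other mice, it was -0.60 (SE 0.38), so the call was lost in both. Values in that second set rest on control 1, which had the most Hmox1 and the least Gsr of the 4 controls, and Hmox1 was at -0.76 (SE 0.32) there. The score, the mean log2(FPKM + 1) of the 7 choroid plexus markers, was 1.30 to 3.23 in Hdac1 cKO and 2.57 to 6.26 in control mice. It thus largely followed genotype, and the fit with this covariate cannot divide a difference between the 2. With the covariate Gsr was called, at 0.69 (SE 0.24). Hmox1 was also called with a pseudocount of 0.1, at -1.03, and Nfe2l2 without control 4, at -0.71. The ependymal markers moved the same way as Nqo1, with a median of -0.98 over the 3. Of 5 endothelial markers 1 was also called lower, with a median of -0.19 over the list. The part of choroid plexus, ependymal and endothelial cells in the Nqo1 values was not tested.

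**Figure D2:**
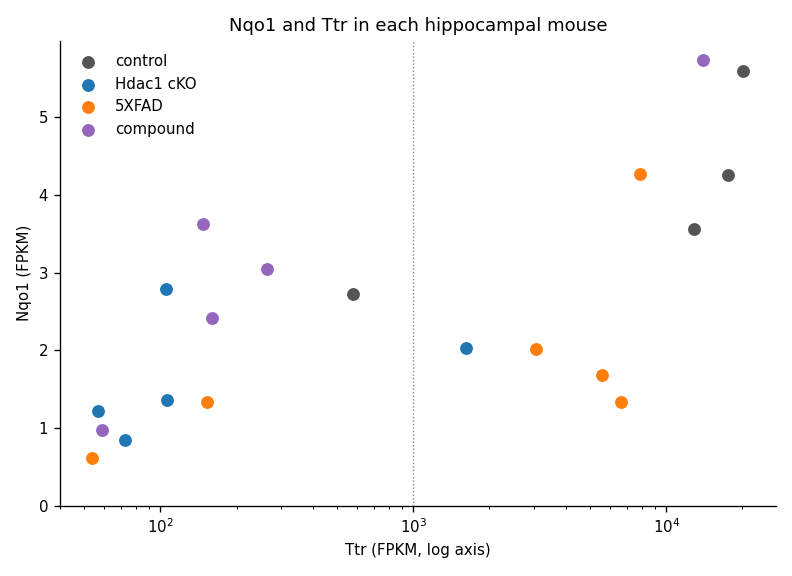
Nqo1 (FPKM, linear axis) against Ttr (FPKM, log axis) for each of the 20 hippocampal mice, coloured by group, with a dotted line at 1000 FPKM of Ttr. The 4 mice highest in Nqo1 (2 controls, 1 compound and 1 5XFAD mouse) all exceed 1000 FPKM of Ttr, whereas the fifth highest, compound 3, has 148 FPKM, and 5XFAD 6 is low in Nqo1 (1.33 FPKM) at 6617 FPKM of Ttr.

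In 5XFAD against control hippocampus Nqo1 was called lower, with a log2 fold change of -0.88 (SE 0.28, limma adjusted p = 0.255, exact permutation p = 0.0381), and Gsr was higher by 0.44 (SE 0.14, exact permutation p = 0.00476), short of the fold threshold. This made 1 member called of 10, beside 2.95% of 14402 genes, and none with an adjusted p under 0.05, beside 0.708% of genes. The other members lay between -0.09 and 0.29. With the choroid plexus score as a covariate Nqo1 was at -0.55 (SE 0.24) and no longer called. Over libraries with Ttr under 1000 FPKM Nqo1 was at -0.94 (SE 0.39), no smaller than the main value. Its call was lost there too, but with a lone control that loss says nothing about libraries rich in Ttr. In that last set Gsr was at 0.75 (SE 0.31), from 2 5XFAD mice against control 1 alone, the control lowest in Gsr, so its passing of the thresholds there rests on that mouse. In the same comparison 2 of 3 ependymal and 1 of 5 endothelial markers were called lower. Choroid plexus markers had a median of -1.37, with 0 of 7 called. Called higher were 4 of 7 microglial and 6 of 6 disease-associated microglial markers, with medians of 0.73 and 1.82, and 1 of 7 astrocyte markers. The part of these cells in the Nqo1 difference was not tested. The transgene cannot be told apart from a library batch in this comparison, and all comparisons with control share the same 4 control mice.

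Compound against control mice gave no call among the 10 members, beside 4.24% of 14348 genes called and 0.662% with an adjusted p under 0.05. By limma, 1 member had an unadjusted p under 0.05. Gsr came closest, with a log2 fold change of 0.57 (SE 0.18, limma adjusted p = 0.235, exact permutation p = 0.0238), a 1.48-fold difference just under the threshold, and it was called in 7 of the 20 alternatives run for it. Nqo1 was at -0.35 (SE 0.31, exact permutation p = 0.381) and Hmox1 at 0.36 (SE 0.24, exact permutation p = 0.183). With the choroid plexus score as a covariate Nqo1 turned to 0.30 (SE 0.32) and Hmox1 was at 0.64 (SE 0.32). Over libraries with Ttr under 1000 FPKM Hmox1 was at -0.07 (SE 0.32), a value set by control 1, the lone control kept there.

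**Figure D3:**
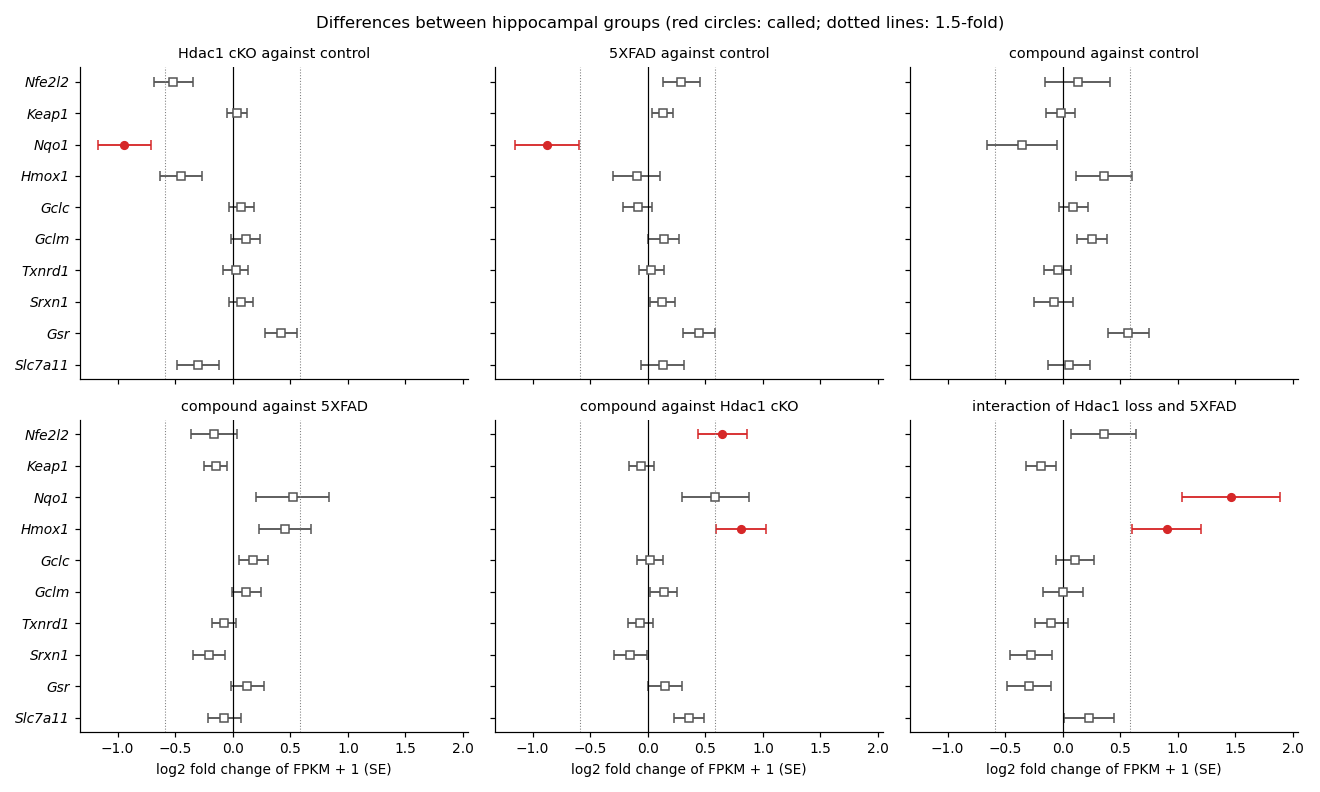
Log2 fold change of FPKM + 1 with its standard error for the 10 genes in 5 comparisons of hippocampal groups and in the interaction of Hdac1 loss and 5XFAD. Red circles mark the called members (Nqo1 in 3 panels, Hmox1 in 2 and Nfe2l2 in 1), grey squares the others, and dotted lines the 1.5-fold threshold.

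On the 5XFAD background, where the comparison asks what HDAC1 loss adds to amyloid pathology, the members did not pass the thresholds. Compound against 5XFAD mice had 0 of 10 members called, beside 1.28% of 14326 genes, and 0.00698% of genes had an adjusted p under 0.05. No member had an unadjusted limma p under 0.05. Nqo1 was at 0.52 (SE 0.32, exact permutation p = 0.193) and Hmox1 at 0.45 (SE 0.22, exact permutation p = 0.0844), both above 0. In Hdac1 cKO against control both were below 0, at -0.94 and -0.45, and only Nqo1 was called. With the choroid plexus score as a covariate both were called, Nqo1 at 0.87 and Hmox1 at 0.64. Nqo1 was also called at 0.72 without 5XFAD 2, the 5XFAD mouse with the most Nqo1 and the most Ttr. It was called at 0.76 without compound 5, the compound mouse with the least Nqo1.

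Compound mice set against Hdac1 cKO mice, both lacking Hdac1 in neurons and astrocytes, differ by the 5XFAD transgene and by the set of deposited libraries. Here 2 of the 10 members were called, both higher, beside 3.55% of 14195 genes. Hmox1, whose Hdac1 cKO mean of 0.464 FPKM lay under the filter of 0.5 FPKM, was higher by 0.81 on the log2 scale (SE 0.22, limma adjusted p = 0.112), in 5 of 5 compound mice above all Hdac1 cKO mice (exact permutation p = 0.00794, the smallest these group sizes allow). Because Hmox1 passed the filter here through its compound level, its values and p-values in this comparison are a description. The call also held with no filter, but on the same values, so this adds no support. Nfe2l2 was higher by 0.65 (SE 0.21, limma adjusted p = 0.238, exact permutation p = 0.0476), and without compound 4 its difference was 0.46 (SE 0.17) and no longer called. Slc7a11, at 0.36 (SE 0.13, exact permutation p = 0.0159), and Nqo1, at 0.59 (SE 0.29, exact permutation p = 0.119), were not called, though Nqo1 was at 0.73 without Hdac1 cKO 3 and 0.83 without compound 5, both past the thresholds. The share of all genes with an adjusted p under 0.05 was 1.49%, and no member was among them. In the same comparison 4 of 7 microglial markers, 6 of 6 markers of disease-associated microglia and 2 of 7 astrocyte markers were called higher, with summed microglial levels of 188 to 350.2 FPKM against 103 to 120.3 FPKM and no marker of these lists at 0 in all mice of a hippocampal group. The part of these cells in the Hmox1 and Nfe2l2 differences was not tested.

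The change with Hdac1 loss differed between backgrounds for Nqo1 and Hmox1. Fitted over all 20 hippocampal mice, the interaction was 1.46 on the log2 scale for Nqo1 (SE 0.43, limma adjusted p = 0.337) and 0.90 for Hmox1 (SE 0.30, limma adjusted p = 0.385), that is, the difference of compound from 5XFAD mice minus that of Hdac1 cKO from control mice. These were 2 of 10 members called, beside 4.07% of 14389 genes, while 0.0% of genes (0 by limma, against 1290 at an unadjusted p under 0.05) had an adjusted p under 0.05. Both calls held in every alternative that could be fitted, 30 for Nqo1 and 29 for Hmox1, of which 20 each left out a single mouse. The filter at 1 FPKM removed Hmox1. Its Hdac1 cKO mean of 0.464 FPKM rested on 1 to 8 fragments per mouse, so its interaction is a description. With the choroid plexus score as a covariate the interaction was 1.00 for Nqo1 (SE 0.35) and 0.73 for Hmox1 (SE 0.30), and over the 11 libraries with Ttr under 1000 FPKM with control 1 as the lone control, it was 1.39 (SE 0.58) and 1.12 (SE 0.38). The other members lay between -0.29 for Gsr and 0.35 for Nfe2l2. Of the 3 ependymal markers, 2 were also called in the interaction, both positive. Choroid plexus markers had a median of 1.73, with 0 of 7 called, and 1 of 6 disease-associated microglial markers was called, also positive. The part of these cells in the Nqo1 and Hmox1 terms was not tested.

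Averaged over both backgrounds, Hdac1 loss gave no call among the members, beside 1.33% of 14389 genes called and 0.0278% with an adjusted p under 0.05. By limma, 2 members had an unadjusted p under 0.05. Nfe2l2 was at -0.34 (SE 0.14, limma adjusted p = 0.420) and Gsr at 0.27 (SE 0.10, limma adjusted p = 0.329). Hmox1 averaged to 0.00 and Nqo1 to -0.21, their changes having opposite signs on the 2 backgrounds. The averaged Nqo1 value turned to 0.33 (SE 0.22) with the choroid plexus score as a covariate and to 0.10 (SE 0.29) over libraries with Ttr under 1000 FPKM, again with control 1 alone, and that of Hmox1 was 0.20 (SE 0.19) and -0.20 (SE 0.19).

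GFAP+ nuclei held the pathway in another proportion. Summed astrocyte markers were at 2650 to 3258 FPKM against 173 to 250.1 FPKM for neuronal and 450.02 to 1223 FPKM for oligodendrocyte markers, with no neuronal or oligodendrocyte marker at 0 in all libraries of a group, so the sorted nuclei were led by their labelled type. Summed endothelial markers were at 85.7 to 128.6 FPKM in the nuclei and 9.19 to 29.4 FPKM in the tissue. Erythroid markers were at 15.4 to 76.4 and 0.241 to 20.7 FPKM. The part of these cells in the levels below was not tested. Slc7a11 was at 66.1, 61.1 and 59.6 FPKM in controls 1, 3 and 4 and at 65.4, 78.0, 65.9 and 72.4 FPKM in Hdac1 cKO mice, which placed it at percentile 95.7 of all genes by mean FPKM, against percentile 57.0 in hippocampal tissue. Gsr stood at percentile 80.0 in the nuclei and 62.5 in the tissue. Txnrd1, in contrast, stood at percentile 61.3 in the nuclei and 77.9 in the tissue, and Srxn1 at 64.8 and 81.5. The nuclei came from cortex and were sequenced by a full-length protocol and the tissue by a 3′ protocol, so the percentiles are set side by side without a test.

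**Figure D4:**
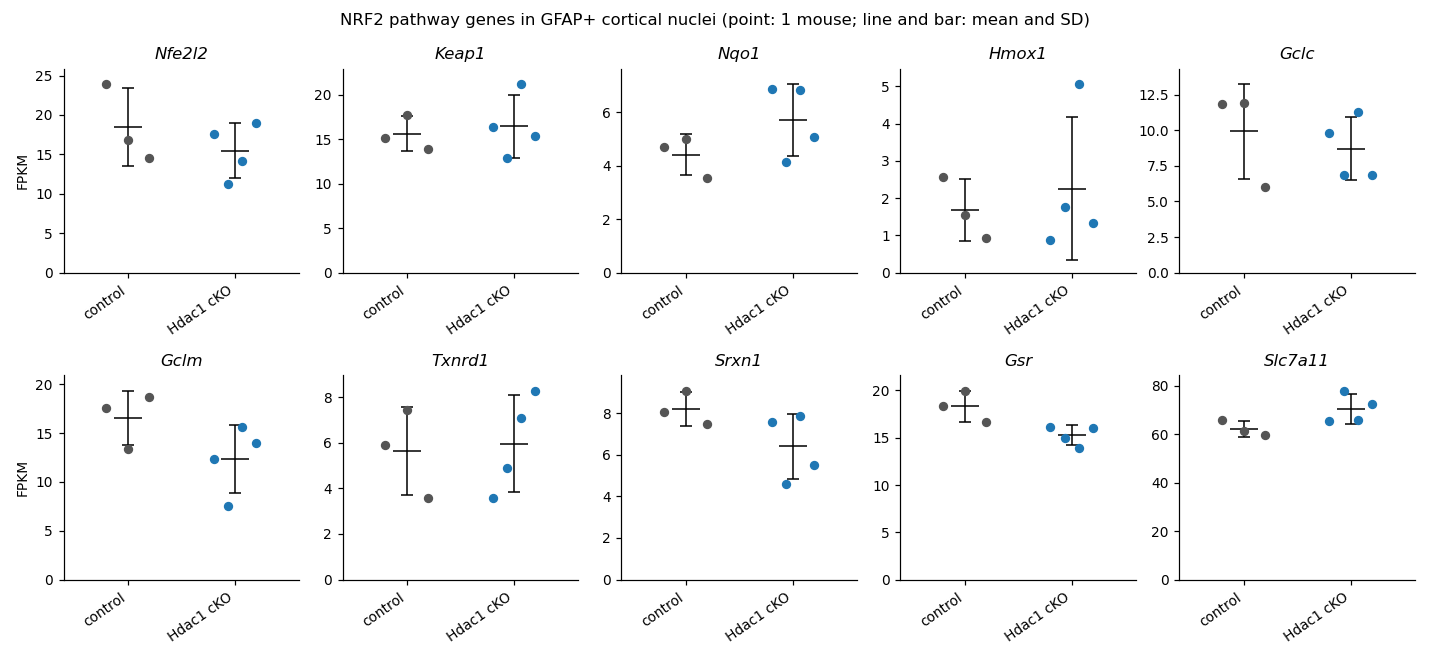
FPKM (linear axis from 0) of the 10 genes in each library of GFAP+ cortical nuclei, with the mean and SD of 3 control and 4 Hdac1 cKO mice. Gsr is the member whose groups do not overlap, and Hmox1 in Hdac1 cKO 3 lies apart at 5.08 FPKM.

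Within GFAP+ nuclei, Hdac1 cKO against control mice gave no call among the 10 members, beside 2.58% of 15070 genes called and 0.0133% with an adjusted p under 0.05. No member had an unadjusted limma p under 0.05, and 709 of all genes did. Gsr was at 18.3, 19.97 and 16.6 FPKM in control and 16.2, 14.9, 13.9 and 16.0 FPKM in Hdac1 cKO mice, with a log2 fold change of -0.25 (SE 0.15). Its groups did not overlap, at the smallest exact permutation p that 3 against 4 mice allow (0.0286), and its sign was opposite to that in the hippocampus, a difference that was not tested. Nqo1, at 4.70, 5.00 and 3.53 FPKM in control and 6.86, 4.14, 6.82 and 5.05 FPKM in Hdac1 cKO mice, had a log2 fold change of 0.30 (SE 0.23, exact permutation p = 0.2). Nfe2l2 was at 24.0, 16.9 and 14.6 FPKM in control and 17.5, 11.2, 14.1 and 19.0 FPKM in Hdac1 cKO mice, a log2 difference of -0.24 (SE 0.22, exact permutation p = 0.429). Of the other members, Gclm (-0.42) and Srxn1 (-0.34) were lowest relative to control, and Keap1, Gclc, Txnrd1, Hmox1 and Slc7a11 lay between -0.14 and 0.17. Ttr was at 6.40, 10.7 and 131 FPKM in control and 95.9 to 246 FPKM in Hdac1 cKO nuclei.

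Beyond the members, 63 further genes of the pathway were read in 6 lists (regulators and partners of NRF2, thioredoxin and glutathione enzymes, NADPH supply, detoxification, heme and iron handling, and other targets), of which 53 passed the filter on low FPKM in most comparisons. In Hdac1 cKO against control hippocampus none of the 53 was called, beside 3.36% of all genes (71 higher and 409 lower), with a median of -0.01 beside -0.000684 for all genes tested. In the other comparisons, where 1.28% to 4.24% of all genes were called in either direction, none of the pathway genes tested was called lower. Prdx6, a peroxiredoxin with phospholipase activity, was higher in compound mice (302 ± 85.2 FPKM, SD, n = 5) than in control (173 ± 18.7 FPKM, n = 4) and Hdac1 cKO mice (173 ± 19.1 FPKM, n = 5), with log2 fold changes of 0.77 (adjusted p = 0.0870) and 0.77 (adjusted p = 0.0289) by limma. The part of the cell types whose markers moved between these groups in the differences of Prdx6 and the other pathway genes was not tested. Ephx1, the microsomal epoxide hydrolase, was higher in compound mice at 17.6 ± 4.03 FPKM than in Hdac1 cKO mice at 10.1 ± 1.39 FPKM, by 0.73 (limma adjusted p = 0.0192), with 14.6 to 24.4 FPKM against 8.32 to 11.8 FPKM and no overlap. Control mice, at 15.9 ± 4.85 FPKM, and 5XFAD mice, at 14.5 to 19.6 FPKM, were near the compound level, so Hdac1 cKO had the lowest mean of the 4 groups, without a call against control. These were the 2 pathway genes with an adjusted p under 0.05 in any comparison, and 4 of 54 (7.41%) were called in compound against Hdac1 cKO mice, beside 3.55% of all genes.

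The other calls were of detoxification genes, of the peroxiredoxin Prdx1 and, in GFAP+ nuclei, of a heme gene. Akr1b8, an aldo-keto reductase, was higher in 5XFAD (1.48 ± 0.912 FPKM) and compound mice (2.13 ± 0.757 FPKM) than in control (0.383 ± 0.326 FPKM, SD), by 0.79 and 1.17 on the log2 scale, and higher in compound than in Hdac1 cKO mice by 0.63. Its control mean lay under the filter of 0.5 FPKM, so against control it was tested only through the group where it was high, and these values are a description. Mgst1, the microsomal glutathione transferase, was at 47.1 ± 14.7 FPKM in compound, 30.3 ± 9.81 FPKM in 5XFAD and 30.2 ± 7.72 FPKM in Hdac1 cKO mice, a difference of 0.62 of compound mice from each of the other 2 groups. Control mice lay between them, at 39.7 ± 11.2 FPKM, and were not called against any group. Among the interaction terms, 3 of 53 (5.66%) were called beside 4.07% of all genes, namely Mgst1 (1.01), Prdx1 (0.61) and Ephx1 (0.60). All 3 were positive, as were 387 of the 586 genes called in the whole table. In GFAP+ nuclei 1 of 54 (1.85%) was called, beside 2.58% of all genes. This was the biliverdin reductase Blvrb, at 19.4 ± 5.10 FPKM in Hdac1 cKO and 12.4 ± 5.56 FPKM in control mice (SD), a log2 fold change of 0.66 (limma adjusted p = 0.984).

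By their pattern over the 20 hippocampal mice, the members called in the tissue had unlike neighbours. Nfe2l2 was most like Emp3 (r = 0.84), Fam129b (0.82) and Limch1 (0.82), Nqo1 was most like Sema3b (0.80), Dmrt3 (0.77) and Elovl7 (0.76), and Hmox1 was most like Slc25a40 (0.80), Leng8 (0.76) and Zfp110 (0.76), by Pearson correlation of log2(FPKM + 1) among 14388 genes. Between members, Nqo1 and Hmox1 had r = 0.49 and Nfe2l2 and Nqo1 r = 0.13. The mice share groups, depth and cell composition, so these values describe likeness only.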

How the data were processed

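The authors deposited FPKM values, 1 per gene and mouse. Per the labels and the study's methods, 3′ Digital Gene Expression gave the hippocampal libraries and SMART-Seq v4 the GFAP+ libraries; reads were aligned with Tophat2 and FPKM computed with Cufflinks 2.0.0 on mm9 with UCSC genes. FPKM divides by transcript length although 3′ libraries sample a single end, so hippocampal levels of different genes are comparable only on that scale. No normalization was added. Genes averaging 0.5 FPKM or more in a comparison were tested on log2(FPKM + 1) with limma 3.58.1 in R 4.3.3 (trend and robust moderation), over the groups compared, or all 4 hippocampal groups for the interaction and the averaged change. P-values were adjusted by Benjamini-Hochberg over all genes tested. Fold changes on this scale understate those of low genes. For single members 70 exact permutation tests were run in all (two-sided, unadjusted). Scripts were tested on simulated data. Whole fragments were recovered within a tolerance of 0.01 for 8 members in hippocampal and 7 in GFAP+ libraries. Every member was named, called pathway genes were named up to 6 per comparison, and the 3 most alike genes were given. The members, lists and rules were chosen with earlier results of these data known. Python 3.11.15, numpy 2.4.6, pandas 2.3.3 and scipy 1.17.1 were used. Alternatives covered the pseudocount, filter, scaling, moderation, ratio of means, replicate block, joint fit, single mice left out and choroid plexus content. Of 34 samples listed, 7 were not analysed here, of which 6 were ChIP-seq.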

Additional observations from a re-analysis of the deposited data

Results flagged for a closer look

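The change of Nqo1 with Hdac1 loss differed between the 2 backgrounds, with an interaction of 1.463 on the log2 scale (limma adjusted p = 0.337). Hmox1 did likewise, with an interaction of 0.9016 (limma adjusted p = 0.385), a description that rests on 1 to 8 fragments per Hdac1 cKO mouse. Txnrd1 in 5XFAD 3, at 9.80 FPKM, stood apart from the other 5XFAD mice, with a gap of 0.639 of the group's range on the log2 scale against a critical value of 0.625. It was the only such library among 50 pairs of member and group tested, and chance gives about 1 in 20.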

How the results depend on the processing

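No member's called value reversed its sign. For 5XFAD against control over libraries with Ttr under 1000 FPKM the count stayed at 1, with Gsr in place of Nqo1. That set keeps a single control, the one with the least Gsr and the most Hmox1, so its calls against control rest on that mouse. The same numbers of members were called with the replicate block, which left 1 in Hdac1 cKO against control and 2 in the interaction and changed no call, and same-numbered mice did not deviate together (correlations -0.11 to 0.09). Members called in Hdac1 cKO against control went from 1 to 2 with a pseudocount of 0.1 and to 3 with the ratio of means, and ranged from 1 to 2 with single mice left out. For compound against control they went from 0 to 1 with a pseudocount of 0.1, quantile normalization, the ratio of means or the choroid plexus covariate, and from 0 to 1 with single mice left out. For compound against 5XFAD they went from 0 to 2 with the covariate and ranged from 0 to 1 with single mice left out; for 5XFAD against control from 1 to 0 with the covariate; for compound against Hdac1 cKO they ranged from 1 to 3 with single mice left out; and for the interaction 1 was left with a filter at 1 FPKM, which removed Hmox1.

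An adjusted p under 0.05 was reached in some alternative by Nqo1 in Hdac1 cKO against control (range 0.0392 to 0.826), Gsr in compound against control (0.0445 to 0.668), and Nfe2l2 (0.0150 to 0.506) and Hmox1 (0.0489 to 0.246) in compound against Hdac1 cKO.

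Of all genes, 641, 384 and 325 were called with a pseudocount of 0.1 in 5XFAD against control, the averaged change and compound against 5XFAD, and 688, 394 and 341 with the ratio of means, against 425, 191 and 184. With the covariate 822 were called in Hdac1 cKO against control (51.2% higher, against 14.8%) and 127 in the averaged change (40.9% higher, against 9.95%). With Ttr under 1000 FPKM, 1340 were called in 5XFAD against control, 938 in Hdac1 cKO against control (50.9% higher), 299 in compound against 5XFAD and 980 in the interaction (44.7% higher, against 66.0%). The cause was not tested. Among the 8 members with recovered hippocampal fragments, depth limits Hmox1 and Nqo1 most, with medians of 6 and 12.5 fragments per library.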
